A study of Mus musculus with 2 samples.

Results

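Rn45s is the mouse transcription unit of the 45S ribosomal RNA precursor, and the stretch examined here is 5900 bp of chromosome 17, with its first base at 39979901 and its last at 39985800 as the files number them, counted from 1. It is 1 place out of 390402 places of the same length on chromosomes 1 to 19 that held at least 1 read. It was chosen on its own read counts. Among the places compared it held the most distinct read positions, and its mutant to wild-type ratio lay below 1. Its level and that ratio are therefore given as descriptions, with no test. The name and the bounds come from the rule that defined the unit. The series text names mouse reference 8, whereas that rule describes the file coordinates as like those of a later mouse build. The build of the files was not checked against a genome. Without a genome or annotation of their build, the label Rn45s could not be checked against sequence.

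The study measured DNA by chromatin immunoprecipitation and sequencing (ChIP-seq) in primary osteoblasts, the cells that lay down bone, of strain 129sv. The antibody, sc-30486 from Santa Cruz, was directed against Tnni2, the inhibitory troponin subunit of fast skeletal muscle fibres. The mutant sample came from Tnni2del175k/175k mice, which carry the del175k allele on both chromosomes, and the wild-type sample from their littermates. No source used here gives their ages, the series text gives n = 3 without saying how animals were combined, and DNA libraries hold no expressed markers by which the cell type could be checked. There is 1 library per genotype, so each comparison is between 2 libraries and has no replicate check and no p-value. No input library was analysed here, so reads over the unit cannot be credited to the antibody. The mutant sample held 3273273 aligned reads and the wild-type sample 3305140. Intervals are exact 95% intervals and cover counting error only. Those on read counts treat reads with the same 5′ end and strand as independent, which they may not be.

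RNA polymerase I reads the ribosomal DNA as a single long precursor in the nucleolus. From its 5′ end the precursor holds an external spacer, the 18S RNA of the small ribosomal subunit, an internal spacer, the 5.8S RNA, a second internal spacer and the 28S RNA, followed by another external spacer. The genes are repeated in arrays near the centromeric ends of several chromosomes, and a genome assembly holds few of these copies, so reads from many copies can be aligned to a single place. The part of this in the counts below was not tested. From general knowledge the full mouse precursor is longer than the 5900 bp examined, and the 18S, 5.8S and 28S parts could not be placed within them. The gene table at hand, of assembly GRCm38.p6, lists an 18S pseudogene on chromosome 17, Rn18s-rs5, between the genes Esp15 and Esp38, but no Rn45s. Whether that pseudogene falls inside the unit was not tested, because the builds may differ. Places within the unit are given below by their distance in bp from its first base.

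By distinct positions, the unit was fuller in both libraries than any other place of its length, with the other places cut at fixed borders. The mutant sample placed 679 reads there (interval 629 to 732) at 611 distinct positions (564 to 661), a distinct position being a 5′ end on a given strand. The wild-type sample placed 1091 reads (1027 to 1158) at 910 distinct positions (852 to 971). The autosomal mean would put 6.99 positions into 5900 bp of the mutant sample and 6.73 into the wild-type sample. The unit thus stood at 87.5 times the autosomal mean in the mutant sample (80.7 to 94.7) and at 135 times in the wild-type sample (127 to 144). The fullest of the other places held 493 positions in the mutant sample and 473 in the wild-type sample. By reads the unit was not the fullest. The place on chromosome 2 from 98506401 to 98512300 held 3699 reads in the mutant sample and 3394 in the wild-type sample. Although so dense, the unit held only 0.0209% of the autosomal positions of the mutant sample (0.0193 to 0.0226%) and 0.0323% of the wild-type sample (0.0302 to 0.0344%).

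The pile-up ended at the unit, and its surroundings were sparse. In the flank, from 39900001 to 40060000 without the unit, the mutant sample held 47 positions and the wild-type sample 49. This is 0.258 times the autosomal mean in the mutant sample (0.189 to 0.343) and 0.279 times in the wild-type sample (0.206 to 0.368). Upstream of the unit lay 37 and 38 of these positions, and downstream 10 and 11. No position lay within 2 kb of the unit on either side in either library. The nearest upstream 5′ end was 6423 bp away in the mutant sample and 3685 bp in the wild-type sample, and the nearest downstream was 4736 and 2952 bp away. Against the flank the unit was 340 times as dense in the mutant sample (313 to 368) and 485 times in the wild-type sample (454 to 518), with intervals that leave out the counting error of the flank itself.

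Along the unit the reads formed a long leading stretch, a nearly empty stretch and a short trailing one, in the same places in both libraries. The first 4000 bp held 507 positions in the mutant sample, 107 times the autosomal mean (97.9 to 117), and 780 in the wild-type sample, 171 times (159 to 183). The last 900 bp held 96 positions in the mutant sample, 90.1 times the mean (73.0 to 110), and 126 in the wild-type sample, 123 times (102 to 146). The nearly empty stretch, from 3733 to 5040 bp, was 1308 bp with 8 positions in the mutant sample and 4 in the wild-type sample. It overlaps the end of the first 4000 bp and the start of the last 900 bp, so the densities given for these include part of it. That stretch, at 39983633 to 39984940, was chosen after its values were seen. Its density was 5.17 times the autosomal mean in the mutant sample (2.23 to 10.2) and 2.68 times in the wild-type sample (0.730 to 6.86), the latter not distinguishable from the mean at this depth. Within it, 441 bp from 4084 to 4524 held no 5′ end in either library.

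**Figure D1:**
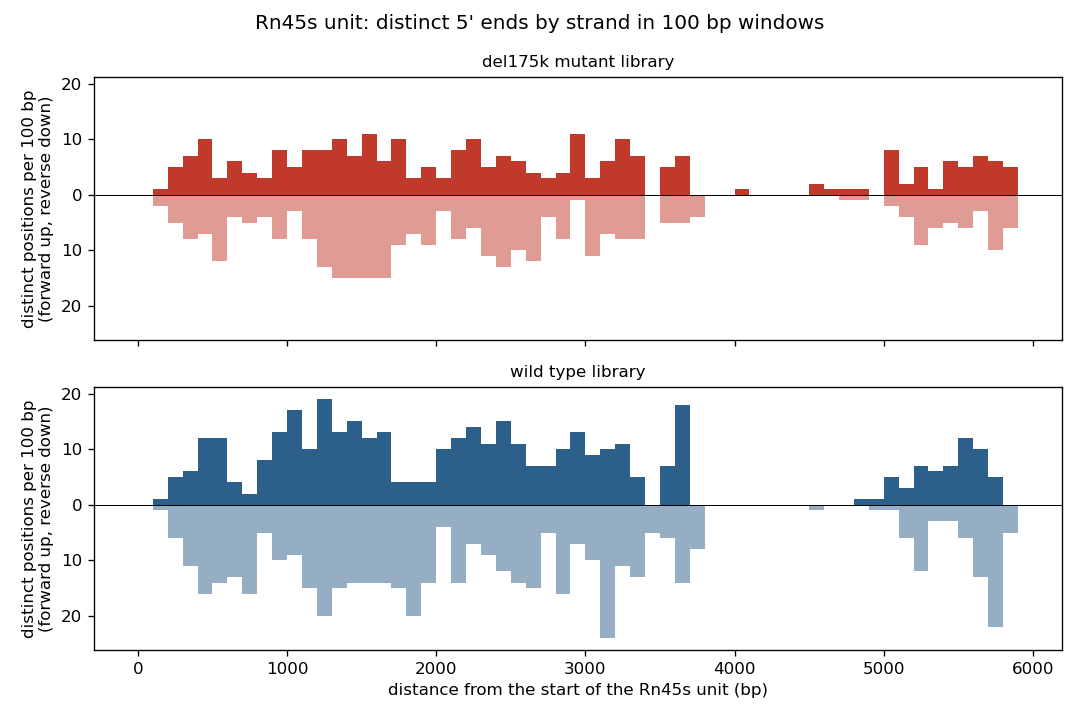
Distinct 5′ ends per 100 bp window along the Rn45s unit, forward strand upward and reverse strand downward, for the mutant sample (top) and the wild-type sample (bottom); the x axis is the distance from the first base of the unit in bp. In both libraries reads are dense in most windows up to 3700 bp and again from 5001 bp, with 8 mutant and 4 wild-type positions from 3733 to 5040 bp.

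The borders of the nearly empty stretch fell on nearly the same base on both strands. Since each read covers 36 bp, forward reads reach downstream of their 5′ end and reverse reads upstream of it. In the mutant sample the last forward 5′ end before it lay at 3697 and the last reverse one at 3731. In the wild-type sample they lay at 3697 and 3732. Counted by covered bases, the leading stretch ended at 3732 on the forward strand of both libraries, and on the reverse strand at 3731 in the mutant sample and 3732 in the wild-type sample. Leaving aside the few reads in between, the trailing stretch began at 5043 on both strands of the mutant sample and at 5041 on both strands of the wild-type sample. The outer borders were less sharp, with the first covered base at 104 in the mutant sample and 126 in the wild-type sample, and the last at 5874 and 5873.

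Within the leading stretch, windows of 500 bp held most positions from 1001 to 1500 bp. That window held 92 positions in the mutant sample, 155 times the autosomal mean, and 147 in the wild-type sample, 258 times. The opening window, from 1 to 500 bp, held 45 in the mutant sample and 58 in the wild-type sample. It includes 138 bp at its start without a 5′ end in either library, which lowers its count. The window from 501 to 1000 bp held 57 and 97, and that from 1501 to 2000 bp held 90 and 114. From 2001 bp on the mutant sample held 74, 63, 60 and 26 positions in successive windows, where the wild-type sample held 108, 105, 98 and 53. The last of these windows, from 3501 to 4000 bp, includes the start of the nearly empty stretch, so its low count does not describe the covered bases in it. The window from 5001 to 5500 bp, which includes the end of the nearly empty stretch, held 48 positions in the mutant sample and 53 in the wild-type sample. The final 400 bp held 48 and 73.

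Windows of 100 bp resolve the end of the leading stretch. From 3601 to 3700 bp, the last window of 100 bp that lies wholly before it, the mutant sample held 12 positions and the wild-type sample 32. Of 59 windows of 100 bp, 9 held no position in the mutant sample and 10 in the wild-type sample. In the 40 windows of the first 4000 bp the mutant sample held from 0 to 26 positions with a median of 14, and the wild-type sample from 0 to 39 with a median of 20.5. The fullest window was that from 1501 to 1600 bp in the mutant sample and that from 1201 to 1300 bp in the wild-type sample. A narrow dip stood near the end of the leading stretch: from 3401 to 3500 bp the mutant sample held 0 positions and the wild-type sample 5, all on the reverse strand. Its neighbour from 3301 to 3400 bp held 15 positions in the mutant sample and 18 in the wild-type sample. Across the 59 windows the counts of the libraries had a Pearson r of 0.87 and a Spearman rho of 0.86, and across the 40 windows of the first 4000 bp 0.81 and 0.75. These windows lie in 1 place and share its sequence, and are not replicates. Both sets include windows that were empty in both libraries, and no correlation was taken without them.

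Reverse-strand positions outnumbered forward ones by a similar margin in both libraries. The mutant sample held 270 forward and 341 reverse positions, a forward share of 44.2% (40.2 to 48.2%). The wild-type sample held 401 forward and 509 reverse, a share of 44.1% (40.8 to 47.4%). Over chromosomes 1 to 19 the forward share was 50.01% in the mutant sample and 50.02% in the wild-type sample. The reverse strand held more positions in 9 of 12 windows of 500 bp in the mutant sample, and in 7 of 12 in the wild-type sample. The widest gap in the wild-type sample lay from 1501 to 2000 bp, with 37 forward and 77 reverse positions, where the mutant sample had 35 and 55. The next window, from 2001 to 2500 bp, had 62 forward and 46 reverse positions in the wild-type sample and 33 and 41 in the mutant sample. Forward shares this low occurred elsewhere too. Among the 20 other places of the same length with 200 or more positions, the forward share ranged from 42.0 to 56.8% in the mutant sample and from 42.4 to 54.8% in the wild-type sample. It lay below that of the unit in 1 of them in the mutant sample and in 4 in the wild-type sample.

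Most positions in the unit were used by a single read, so the pile-up was made of many separate positions rather than of tall stacks. In the mutant sample 554 of 611 positions held 1 read, 49 held 2, 5 held 3 and 3 held 4. In the wild-type sample 754 of 910 held 1 read, 133 held 2, 21 held 3 and 2 held 4. No position held more than 4 reads. The fullest in the mutant sample lay at 928 bp on the forward strand, 5214 bp on the forward strand and 5234 bp on the reverse strand, and in the wild-type sample at 374 and 1782 bp on the reverse strand. None of these 5 was used in the other library.

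**Figure D2:**
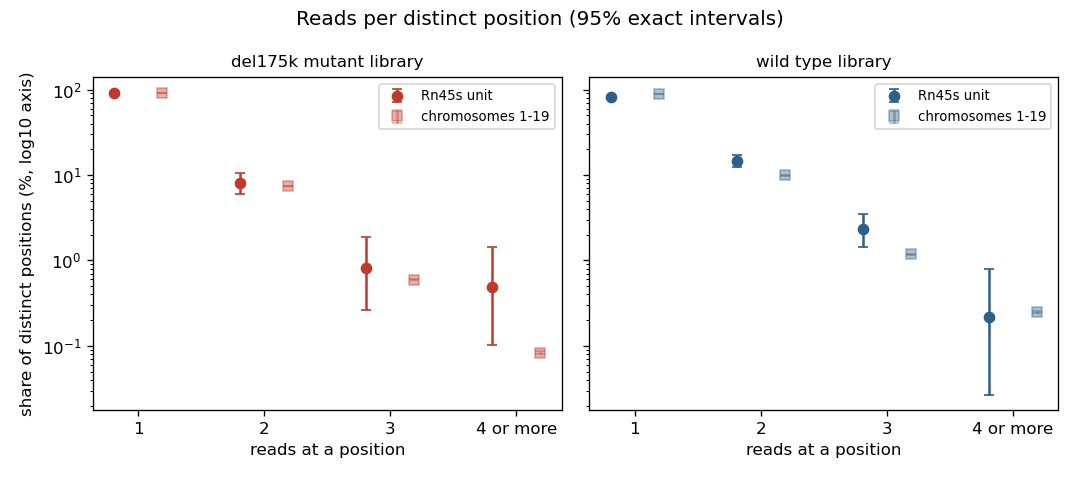
Share of distinct positions (y axis, %, log10 scale) by the number of reads they held (x axis), in the Rn45s unit (circles) and on chromosomes 1 to 19 (squares), with exact 95% intervals, for the mutant (left) and wild-type sample (right). In the wild-type sample 14.6% of the positions in the unit held 2 reads, against 9.87% on the autosomes, and in the mutant sample 8.02% against 7.38%.

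The mean was 1.11 reads per position in the mutant sample and 1.20 in the wild-type sample, where chromosomes 1 to 19 had 1.09 and 1.13. Repeated reads, those after the first at the same position, were 10.01% of all reads of the unit in the mutant sample (7.86 to 12.5%), and the autosomal 8.22% lies inside that interval. In the wild-type sample they made up 16.6% (14.4 to 18.9%), above the autosomal 11.6%. Reads filled 5.18% of all strand-specific positions of the unit in the mutant sample and 7.71% in the wild-type sample, against 0.0592% and 0.0571% on the autosomes. Separate fragments that begin at the same base count once, so distinct positions undercount fragments more where filling is higher. The part of this in the repeated reads of the unit was not tested. Of the positions in the unit 79 were used in both libraries, which is 12.9% of those of the mutant and 8.68% of those of the wild-type sample. On the autosomes these shares were 0.245% and 0.254%. Positions coincide more often by chance where filling is higher, as it was in the unit. The part of this in the shared positions was not tested.

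The unit was chosen with its ratio known, and the mutant sample lay below the wild-type sample there. After scaling to the autosomal positions of each sample (2927228 for the mutant, 2821498 for the wild type), the ratio was 0.647 (0.583 to 0.718). With every aligned read counted it was 0.623 (0.565 to 0.686). The forward strand alone gave 0.649 (0.554 to 0.759) and the reverse strand 0.646 (0.561 to 0.742). The sparse flank gave 0.925 (0.606 to 1.41), not distinguishable from 1 at its depth, and the rest of chromosome 17 gave 0.979 (0.971 to 0.987). Scaled to the flank instead, the unit had a ratio of 0.70, inside 1.5-fold.

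The ratio was also taken window by window. In all 10 windows of 500 bp with 20 or more positions the ratio lay below 1, from 0.473 (0.284 to 0.770) at 3501 to 4000 bp to 0.873 (0.578 to 1.32) at 5001 to 5500 bp, with a median of 0.619. The interval of each of the 10 included the 0.647 of the whole unit. That value comes largely from the counts of these same windows, so this is no separate check. In windows of 100 bp, 37 of the 38 with 20 or more positions lay below 1, with a median of 0.644. The exception, from 5401 to 5500 bp, had a ratio of 1.06. Among windows of 100 bp with fewer positions, the mutant sample was higher in some, with intervals that included 1. It held 3 positions against 2 from 101 to 200 bp (interval 0.166 to 17.3). From 5001 to 5100 bp it held 10 against 6 (ratio 1.61, 0.529 to 5.38). From 5801 to 5900 bp it held 11 against 5 (ratio 2.12, 0.679 to 7.79). Other such windows were lower in the mutant sample, such as 5101 to 5200 bp with 6 against 9. The first 4000 bp had a ratio of 0.627 (0.559 to 0.702) and the last 900 bp a ratio of 0.734 (0.557 to 0.965), and these intervals overlap. The nearly empty stretch held too few positions for a ratio to be read.

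**Figure D3:**
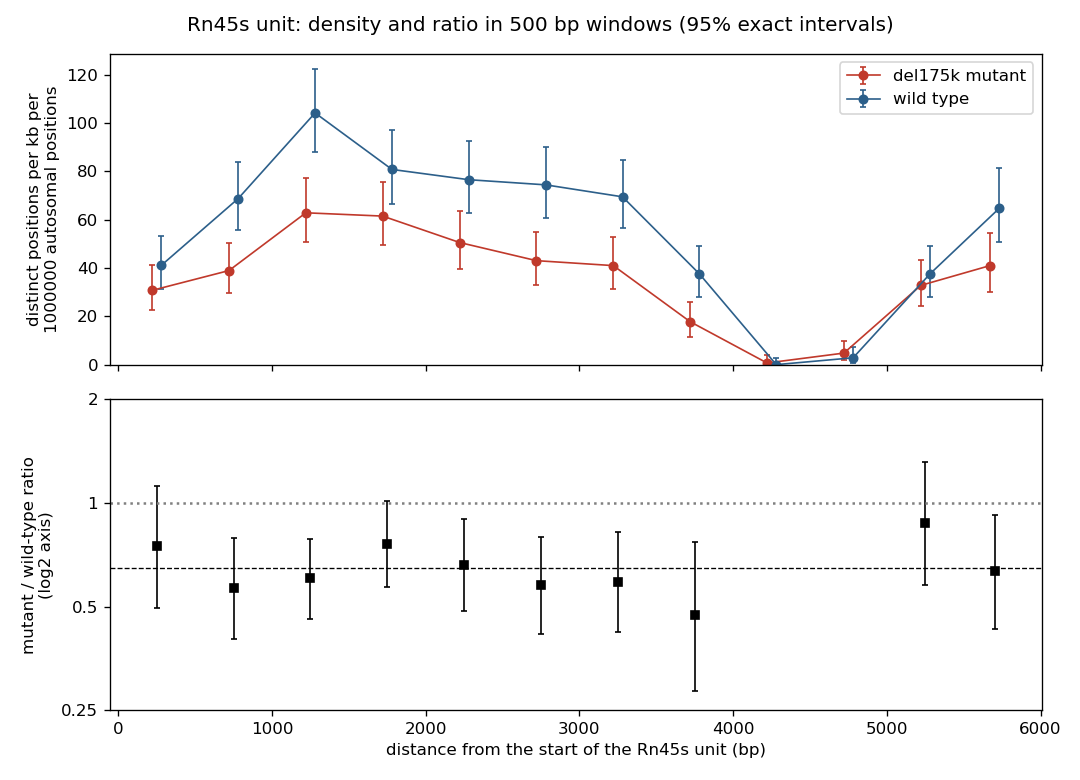
Top: distinct positions per kb, scaled to 1000000 autosomal positions, in 500 bp windows (the last 400 bp long), mutant and wild type, against the distance from the first base of the Rn45s unit in bp; bottom: mutant to wild-type ratio on a log2 axis for the 10 windows with 20 or more positions, with the ratio of the whole unit dashed and 1 dotted. Bars are exact 95% intervals, and all 10 ratios lie between 0.473 and 0.873.

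For a background, chromosomes 1 to 19 were cut into tiles of 5900 bp, leaving out those that overlap the unit. Of 98461 tiles with a summed count of 20 or more positions, 34.0% had a ratio past 1.5-fold in either direction and 20.4% were past 1.5-fold lower in the mutant sample. Most were far smaller than the unit, and 144 of them held 50 or more positions. The ratios of these 144 ran from 0.151, at 81 positions on chromosome 7, to 6.90, at 106 positions on chromosome 2. The tile with 6.90 is part of a run of adjoining tiles, and others adjoin too, so these are not 144 separate places. Of the 20 tiles with 200 or more positions, 0 (0%) were past 1.5-fold in either direction, and their ratios ran from 0.817 to 1.23 with a median of 0.986. Many of the 20 adjoin one another, with 11 on chromosome 11, so they are not 20 separate places. The unit, with 1521 positions and a ratio of 0.647, past 1.5-fold lower, lay below all 20. Its interval, 0.583 to 0.718, extends inside 1.5-fold, so counting error leaves the side of that line unsettled. As the unit was chosen for this ratio, its place among the 20 is a description.

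**Figure D4:**
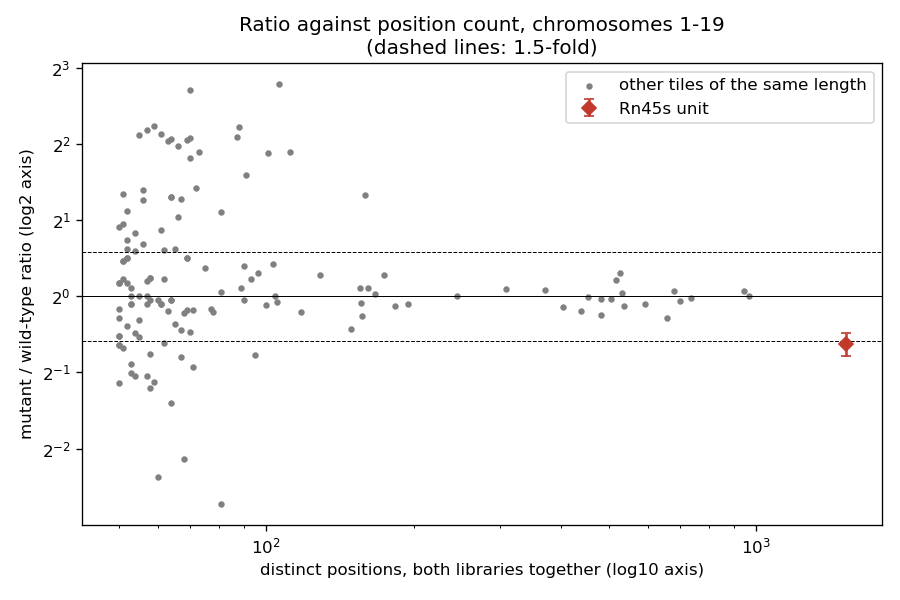
Mutant to wild-type ratio (y axis, log2 scale) against distinct positions in both libraries together (x axis, log10 scale) for the 144 tiles of 5900 bp with 50 or more positions (grey) and the Rn45s unit (red, exact 95% interval); dashed lines mark 1.5-fold. The unit lies farthest to the right with 1521 positions at a ratio of 0.647, and the 20 tiles with 200 or more positions lie between 0.817 and 1.23.

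The 5 tiles elsewhere with the most distinct positions are given for comparison. Those on chromosome 2 from 98500501 to 98506400 and from 98506401 to 98512300 consisted of tall stacks. The second held 492 positions in the mutant sample and 473 in the wild-type sample, but 7.52 and 7.18 reads per position, and single positions with up to 60 and 84 reads. Of its mutant positions 88.8% lay in the 2 fullest windows of 500 bp, where the unit had 29.8%. The ratios of these tiles were 1.05 (0.925 to 1.20) and 1.003 (0.882 to 1.14). The other three lay on chromosome 11, starting at 3056201, 3062101 and 3091601, and resembled the unit in having between 1.08 and 1.19 reads per position. In that order the ratios were 0.982 (0.848 to 1.14), 0.961 (0.826 to 1.12) and 1.05 (0.898 to 1.22). The unit was chosen for its low ratio, so no test of its difference from these tiles was made.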

How the data were processed

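Per the submitters' processing notes, the aligner was Bowtie. Its version, its mismatch setting and how repeated or multiply placed reads were treated were not given in the sources used here. The deposited files list 1 aligned 36 bp read per line, and the authors' deposited score, always 255, was not used. The 5′ end is the first base of a forward read and the last base of a reverse read. Reads were reduced to distinct chromosome, 5′ end and strand, and counted in windows of 100 and 500 bp by 5′ end. Ratios are mutant over wild type, with Clopper-Pearson intervals of the split of counts. Other intervals are Poisson for counts and Clopper-Pearson for shares. The autosomal mean is taken over the length up to the last read of each chromosome. The named places are the unit, its windows, its fullest positions and the 5 densest tiles elsewhere. The unit and all lists were chosen with earlier results of these data known. The counting was tested on simulated data. Alternatives covered repeated reads, scaling, read shift, flank and the tile minimum. No sequence is printed, since the promoter table used here holds no entry for Rn45s. The software was scipy 1.17.1 and numpy 2.4.6 with pandas 2.3.3 in Python 3.11.15, and matplotlib 3.10.9 for plots.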

Additional observations from a re-analysis of the deposited data

How the results depend on the processing

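The ratio of the unit lay between 0.620, with reads capped at 3 per position, and 0.70, scaled to the flank, under its 8 alternatives. Only the scaling to the flank, which rests on 47 and 49 positions, brought the ratio itself inside 1.5-fold. Scaled to the median 100 kb bin it was 0.627, and to the rest of chromosome 17 it was 0.661. The intervals under the main setting and all 8 alternatives extend inside 1.5-fold. The density over the flank in the wild-type sample rose from 485 to 518 times with every aligned read. The share of tiles past 1.5-fold fell from 34.0% to 0% with a minimum of 200 positions, which leaves 20 tiles. With a minimum of 50 it was 40.3% of 144 tiles, many of which adjoin one another. The cause of the change over the flank was not tested. The remaining alternatives for density and strand share moved each value by less than its counting interval. Reads per position have no interval here. Without the fullest position they went from 1.111 to 1.107 in the mutant sample and from 1.199 to 1.196 in the wild-type sample. No paired analysis was possible because each genotype has 1 library, and no library could be left out. Depth limits the windows of 100 bp and the flank.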

Other observations

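Pairs of opposite-strand positions inside the Rn45s unit, a forward 5′ end with a reverse one downstream, became fewer with distance, though unevenly, and showed no clear maximum. The mutant sample held 1089 such pairs at 1 to 50 bp, 1105 at 101 to 150 bp, 1009 at 201 to 250 bp and 783 at 501 to 550 bp. The wild-type sample held 2462, 2307, 2414 and 1953. The highest count of any 50 bp step was 1105 in the mutant sample, at 101 to 150 bp. In the wild-type sample it was 2531, at 51 to 100 bp. Same-strand pairs numbered 2309 at 1 to 50 bp and 1656 at 501 to 550 bp in the mutant sample, against 5365 and 4089 in the wild-type sample. They add up the pairs of both strands, whereas opposite-strand pairs count a single orientation, so the sizes of the sets cannot be compared. Pairs share positions and are not independent, so no interval is given.

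The 20 tiles with 200 or more positions outside the unit lay on 4 chromosomes: 11 on chromosome 11, 6 on chromosome 9, 2 on chromosome 2 and 1 on chromosome 3.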
